A study of Drosophila melanogaster with 4 samples.

Results

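Chromosome 4 of Drosophila melanogaster, its smallest autosome, carries active genes inside chromatin that is otherwise built like heterochromatin. The genes described here are 35 named genes of that chromosome, of which the 30 with a mean level of at least 1 over the 4 libraries make up the member list. They are 30 of the 14775 genes that could be named and 30 of the 64 chromosome 4 genes that were abundant enough to test, out of 92 chromosome 4 genes with any target. The member closest to the limit was zfh2 with a mean of 1.75, and the listed gene closest below it was toy with 0.77. RNA came from ovaries of flies in 2 groups. The piwi-embKD flies were vasa-GAL80[ts]/+;;da-GAL4/shpiwi, and the white-embKD controls were vasa-GAL80[ts]/+;;da-GAL4/shwhite, with 2 libraries per group. Both groups thus carried da-GAL4, vasa-GAL80[ts] and a hairpin. Fly stocks were held at 18 °C, and the embryos of both groups were placed at 28 °C to start RNA interference. The tissues in which the drivers acted are not stated in the labels. The hairpin in the controls was directed at white, an eye colour gene. Neither the age of the adults nor the number of flies per library is stated in the labels.

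Piwi is the nuclear Argonaute protein that, loaded with piRNAs, directs silencing of transposons at the level of chromatin in the ovary. On chromosome 4, the heterochromatin protein HP1a and methylation of histone H3 by the methyltransferase Eggless are spread over the gene-rich part of the chromosome, and the protein Pof binds its active genes. Short transposon fragments, mostly of the INE-1 and 1360 families, lie between and inside those genes. Of 566 transposon copies annotated on the chromosome in the Ensembl annotation, 344 were INE-1 and 60 were 1360.

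Levels are effective counts normalised by the authors, which summed to 970340 to 1017515 per library. With the smallest step between values taken as 1e-06 of a count, inferred depth was 16194219 and 16445363 effective counts in the piwi libraries and 20025084 and 19271510 in the white libraries. The piwi transcript stood at 238 and 121 in piwi-embKD replicates 1 and 2, against 410.0 and 401 in the white libraries (log2 change −1.25 ± 0.29 SE, limma adjusted p = 0.0572). Both piwi libraries were below both white ones, replicate 2 the more so, but the difference did not pass the threshold of 0.05. The white gene (w) stood at 3.34 and 2.87 in the piwi libraries and 1.35 and 1.19 in the white libraries (limma adjusted p = 0.103). The labels do not say whether the adults were returned to 18 °C, and each group has its own hairpin line, so line and knockdown cannot be told apart. In bulk RNA, fewer cells of a type and less RNA per cell cannot be told apart either.

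Genes of chromosome 4 had less of the signal in piwi-embKD ovaries, and 8 of them fell. Their summed level took 1.72% and 1.61% of the piwi libraries and 2.02% and 2.02% of the white libraries. As a share of the signal of named genes alone, which leaves the transposons out, the chromosome held 1.75% ± 0.07 in piwi-embKD and 2.05% ± 0.01 in white-embKD ovaries (SD, n = 2 each), a ratio of 0.852. Neither piwi library reached the white range, and the piwi libraries were farther from each other than the white ones. With 2 libraries against 2, an exact permutation test cannot give a p below 0.333, so no p is given for this sum. The other arms had ratios between 0.98 (2L) and 1.06 (X). The summed level of the 30 members was 7334 and 7083 in the piwi libraries and 9135 and 9074 in the white libraries, which puts the piwi mean at 79.2% of the white mean. For the chromosome 4 genes outside the list the summed level was 10193 and 9075 in the piwi libraries and 10821 and 10510 in the white libraries, or 90.3%.

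Of the 30 members, 8 fell and 0 rose in limma at an adjusted p under 0.05, where 1.65% of all 8172 features tested were called lower and 5.04% higher. At an unadjusted p under 0.05 limma placed 16 members lower and 3 higher. For 20 members (66.7%) the groups did not overlap and piwi-embKD was the lower, against 33.1% of all features, and for 5 it was the higher, against 25.9%. The median log2 change of the members was −0.27, and that of all features was −0.04. The members were chosen with results of these data known, and all 8 called genes of the chromosome are on the list, so the members' counts are a description of that choice as well. The 64 chromosome 4 genes tested include the 30 members. They are all genes of the chromosome that passed the filter, so which of them were listed does not alter their counts. The list that singles out this chromosome was still chosen with results known, so these counts are descriptions too. Of the 64, 8 fell (12.5%) and 0 rose, and all 8 are members. The median was −0.25, and 46 had a log2 change below 0 (71.9%, against 55.7% of all features). In 39 piwi-embKD was lower without overlap (60.9%). At an unadjusted p under 0.05 limma placed 30 of the 64 lower and 4 higher, where 11.8% and 13.2% of all features were so placed.

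These counts depended on which libraries and filter were used. Without white-embKD replicate 1 a single chromosome 4 gene was called lower (PlexB) and without white-embKD replicate 2 also 1 (mav), where 0.341% and 0.292% of all features were lower and 2.61% and 2.3% higher. The other 6 called members lost their call without either white library. Without piwi-embKD replicate 1 the count was 34 lower and 2 higher (18.3% and 16.2% of all features), and without piwi-embKD replicate 2 it was 22 lower and 3 higher (8.11% and 10.1%). With no filter on low values, limma called 0 of 87 in either direction (0.123% of all features lower and 0.583% higher). Without the intensity trend 2 were lower (Cadps and CG11155) and 1 higher (zfh2), where 1.26% and 5.49% of all features were called. The other pseudocounts, the stricter filter and the other scalings gave 7 to 11 lower and 0 higher. Of all features, 1.75% were lower and 5.16% higher with the larger pseudocount, 1.54% and 4.89% with the smaller one, 1.85% and 5.44% with the stricter filter, 1.37% and 4.89% with median-of-ratios scaling, and 1.51% and 5.32% with upper-quartile scaling. The members' median stayed between −0.29 and −0.23 in all these settings.

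**Figure D1:**
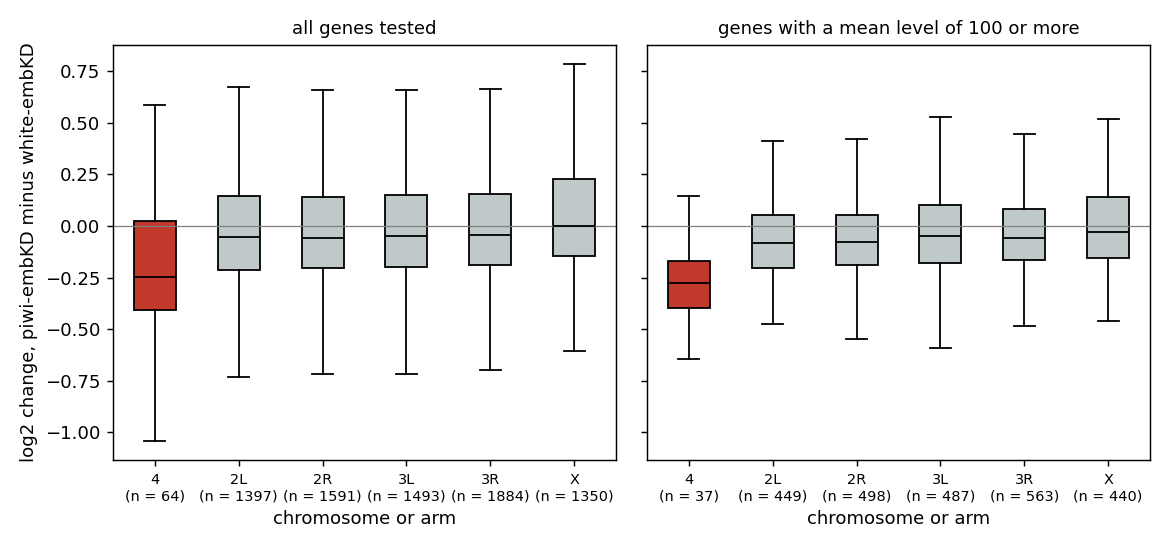
Log2 change (piwi-embKD minus white-embKD, vertical axis) of genes on chromosome 4 and on the arms 2L, 2R, 3L, 3R and X, for all genes tested (left) and for genes with a mean level of at least 100 (right). Boxes span the quartiles around the median line, whiskers reach the last gene within 1.5 times the box height, and genes beyond are not drawn; the chromosome 4 medians are −0.25 and −0.27, below the medians of the other arms, while the boxes overlap in the left panel.

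Set beside the other arms, the median log2 change was −0.25 on chromosome 4, −0.06 on 2L, −0.06 on 2R, −0.05 on 3L, −0.04 on 3R and −0.00109 on X. The share called lower was 12.5% on chromosome 4 and lay between 0.37% (X) and 1.82% (2R) on the other arms. By level, chromosome 4 medians lay below those of the rest of the genome in abundant and in low genes, and close to them between. Among genes with a mean level of at least 100, 33 of 37 on chromosome 4 had a log2 change below 0 (89.2%), with a median of −0.27, against 60.9% and a median of −0.06 among the 2476 features off the chromosome. Among genes with a mean from 10 to 100, the median was −0.08 for 13 chromosome 4 genes and −0.06 off the chromosome. Among those with a mean under 10 it was 0.07 for 14 chromosome 4 genes and 0.28 off it. No test of the chromosome as a set was run, and these figures are descriptions.

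**Figure D2:**
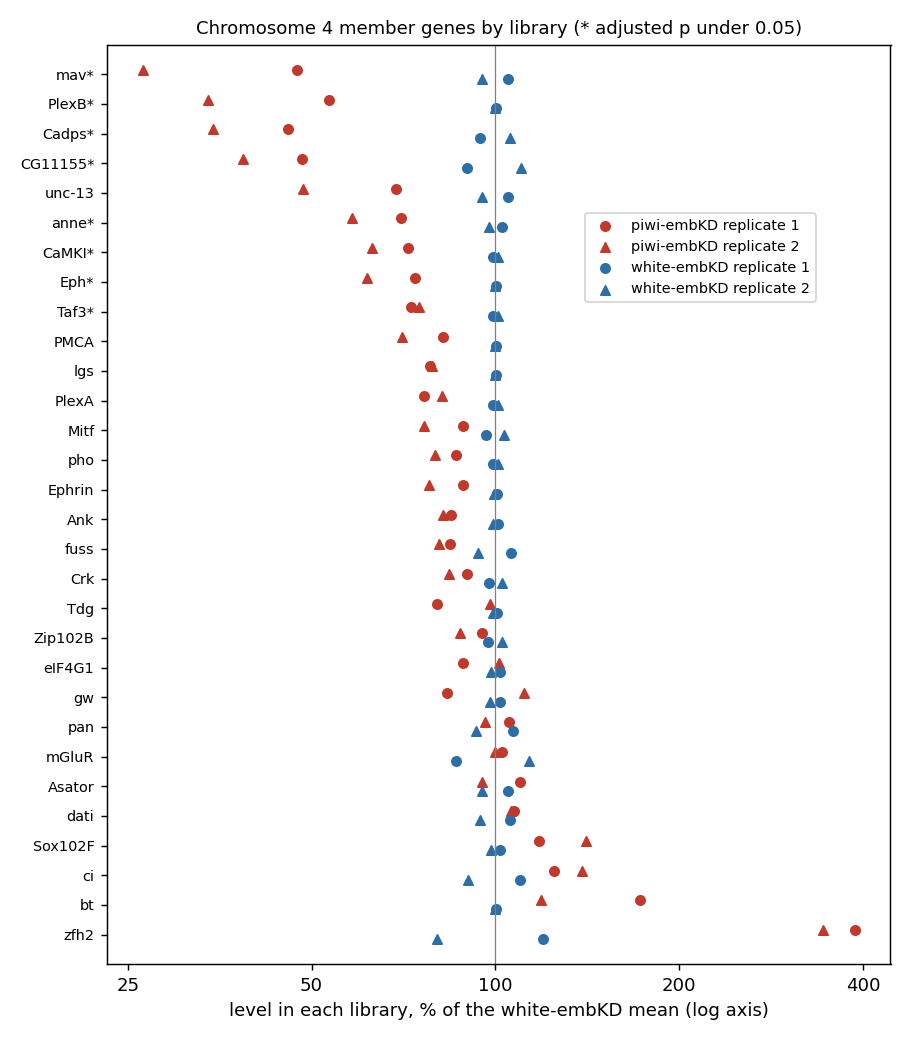
Level of each of the 30 member genes in every library, as a percentage of that gene's white-embKD mean on a log axis; red marks are piwi-embKD, blue marks white-embKD, circles replicate 1 and triangles replicate 2. An asterisk marks the 8 genes with an adjusted p under 0.05, in which both piwi libraries lie left of both white libraries.

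The steepest falls of single members were those of mav and PlexB, both signalling genes. As a group, the signalling members had a median log2 change of −0.34. The members of transmitter release, channels, pumps and transport, described below with CaMKI, had −0.65. The gene mav (CG1901), which encodes the TGF-beta family ligand Maverick, stood at 47.8 and 26.7 in the piwi libraries and 105.8 and 96.1 in the white libraries. Its piwi mean was 36.9% of the white mean (log2 change −1.47 ± 0.25 SE, limma adjusted p = 0.0242), the largest fall among the 64 chromosome 4 genes tested, and the groups did not overlap. The call was lost without white-embKD replicate 1. PlexB (CG17245), a receptor for secreted semaphorins in axon guidance, stood at 232 and 147 in the piwi libraries and 435 and 434 in the white libraries, or 43.6% (log2 change −1.23 ± 0.20 SE, limma adjusted p = 0.0212). Its white libraries were nearly equal and its piwi libraries were far apart, with replicate 2 the lower, and the call was lost without white-embKD replicate 2. An antisense gene, asRNA:CR45124, overlaps its exons.

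Eph (CG1511), the fly's receptor tyrosine kinase for ephrins, stood at 302 and 253 in the piwi libraries and 410.2 and 409 in the white libraries (log2 change −0.57 ± 0.11 SE, limma adjusted p = 0.0384). Its ligand gene Ephrin, also on chromosome 4, stood at 271 and 238 in the piwi libraries and 308 and 304 in the white libraries, with a limma adjusted p of 0.167 and a log2 change of −0.27. The groups did not overlap for either. PlexA, the receptor for membrane-bound semaphorins, was at 727 and 778 in the piwi libraries and 942 and 960.3 in the white libraries (log2 change −0.34, limma adjusted p = 0.0984). Crk, an adaptor that links receptors to cytoskeletal signalling, had a log2 change of −0.20, and the glutamate receptor gene mGluR, at 6.30 and 6.15 in the piwi libraries and 5.31 and 6.99 in the white libraries, had 0.03. Of the 7 members in this group 3 fell, where 1.65% of all features were called lower. In 6 of the 7 piwi-embKD was lower without overlap (85.7%, against 33.1% of all features).

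Of the 30 members, 6 are known for transmitter release, channels, pumps or transport, and 3 of them fell. The kinase gene CaMKI, described with them, fell as well. All 7 had piwi-embKD lower without overlap, against 33.1% of all features, of which 1.65% were called lower. Cadps (CG33653), which primes dense-core vesicles for release, was low, at 2.98 and 2.24 in the piwi libraries and 6.14 and 6.87 in the white libraries (log2 change −1.06 ± 0.22 SE, limma adjusted p = 0.042). These levels correspond to about 47.4 and 36.7 effective counts in the piwi libraries and 124 and 136 in the white libraries. CG11155, which encodes a subunit of the kainate type of glutamate receptor, stood at 4.89 and 3.92 in the piwi libraries and 9.11 and 11.2 in the white libraries (log2 change −1.04 ± 0.20 SE, limma adjusted p = 0.0343). Its exons overlap those of CG32017 on the opposite strand, and with the strand setting not given its reads cannot be separated from that gene's with certainty.

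The gene anne (CG32000) stood at 432 and 359.6 in the piwi libraries and 633 and 603 in the white libraries (log2 change −0.65 ± 0.12 SE, limma adjusted p = 0.0284). Its product is a P-type ATPase. CaMKI (CG1495), a calcium and calmodulin dependent protein kinase, stood at 181 and 159 in the piwi libraries and 249.7 and 254 in the white libraries (log2 change −0.57 ± 0.10 SE, limma adjusted p = 0.0274). In both genes piwi-embKD replicate 2 was the lower piwi library, and the gap to the white libraries exceeded the gap within either pair. The vesicle priming gene unc-13 stood at 201 and 141 in the piwi libraries and 306 and 278 in the white libraries, and it missed the threshold by a narrow margin (log2 change −0.79 ± 0.17 SE, limma adjusted p = 0.05001). Settings that took it past the threshold included the larger pseudocount, the stricter filter and leaving out either piwi library. The exons of unc-13 overlap antisense genes and transposon copies. The calcium pump gene PMCA was at 647 and 554 in the piwi libraries and 789 and 787 in the white libraries (log2 change −0.40, limma adjusted p = 0.0938), and the zinc transporter gene Zip102B had a log2 change of −0.13.

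The list also holds effectors of Hedgehog and Wingless signalling, of which none was called in limma. The gene ci, the transcription factor at the end of the Hedgehog pathway, stood at 21.7 and 24.1 in the piwi libraries and 19.2 and 15.7 in the white libraries (log2 change 0.38 ± 0.15 SE, limma adjusted p = 0.185). The antisense gene asRNA:CR43957 overlaps its exons. For the Wingless pathway, lgs, which ties beta-catenin to its coactivator, was at 213 and 215 in the piwi libraries and 273 and 273 in the white libraries (log2 change −0.35, limma adjusted p = 0.0688), while pan, the TCF factor that binds DNA in the same complex, was at 77.4 and 70.7 in the piwi libraries and 78.9 and 68.5 in the white libraries, with overlapping groups. At an unadjusted p under 0.05 limma placed lgs lower and ci higher, and pan in neither set.

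Among 7 transcription and chromatin factors, 1 fell. Taf3 (CG2009), a subunit of the general factor TFIID, stood at 346 and 356 in the piwi libraries and 472 and 479.6 in the white libraries (log2 change −0.44 ± 0.09 SE, limma adjusted p = 0.0391). Among the 8 called members it was the only one in which replicate 2 was not the lower piwi library, and its call was lost with median-of-ratios scaling. The antisense gene asRNA:CR45126 overlaps its exons. The Polycomb recruiter pho was at 365 and 337 in the piwi libraries and 419 and 426 in the white libraries (log2 change −0.27, limma adjusted p = 0.144). Mitf, a regulator of lysosomal genes, was at 614 and 529.6 in the piwi libraries and 670.3 and 718 in the white libraries (log2 change −0.28, limma adjusted p = 0.184). Without piwi-embKD replicate 1 the log2 changes of pho and Mitf were −0.33 and −0.39, and without piwi-embKD replicate 2 they were −0.21 and −0.18. Per kilobase of merged exon length, Mitf, pho and the translation initiation factor gene eIF4G1 had the highest levels among the members, at 125, 147 and 162 in piwi-embKD and 151, 177 and 170.3 in white-embKD ovaries.

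The remaining transcription factors were low. The homeodomain and zinc finger gene zfh2 stood at 2.91 and 2.58 in the piwi libraries and 0.90 and 0.60 in the white libraries (log2 change 1.10 ± 0.27 SE, limma adjusted p = 0.0685). That is about 46.3 and 42.3 effective counts in the piwi libraries and 18.2 and 11.98 in the white libraries, and it entered the test only through the piwi libraries. Leaving out the trend took zfh2 past the threshold (limma adjusted p = 0.0179), but the other scalings, the other pseudocounts and no filter did not. Its log2 change was 1.04 and 1.17 without piwi-embKD replicates 1 and 2. It was 1.23 and 0.98 without white-embKD replicates 1 and 2. The exons of zfh2 overlap those of the DNA glycosylase gene Tdg (listed as Thd1) on the opposite strand. Sox102F, a Sox family factor, was at 11.3 and 13.5 in the piwi libraries and 9.78 and 9.44 in the white libraries (log2 change 0.34 ± 0.16 SE, limma adjusted p = 0.253). The zinc finger gene dati was at 15.5 and 15.3 in the piwi libraries and 15.2 and 13.6 in the white libraries (log2 change 0.09 ± 0.14 SE, limma adjusted p = 0.712), and fuss, of the Ski and Sno family, had a log2 change of −0.23.

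None of the members of translation, RNA silencing, the cytoskeleton or the enzyme group was called in limma. At an unadjusted p under 0.05, 1 was lower and 1 higher (Ank and bt), where 11.8% and 13.2% of all features were so placed. The initiation factor gene eIF4G1 stood at 991 and 1134 in the piwi libraries and 1137 and 1099.5 in the white libraries, and gw, the GW182 protein of miRNA silencing, at 395 and 528 in the piwi libraries and 484 and 465 in the white libraries. The groups overlapped for both, with log2 changes of −0.08 ± 0.11 and −0.05 ± 0.15 SE. The ankyrin gene Ank, which links membrane proteins to the spectrin skeleton, was at 563 and 546 in the piwi libraries and 672 and 659.9 in the white libraries (limma adjusted p = 0.141). The kinase gene Asator had a log2 change of 0.03, and Tdg −0.17.

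The muscle gene bt, which encodes the giant sarcomere protein projectin, was the member with the second largest positive change. It stood at 96.8 and 66.6 in the piwi libraries and 56.1 and 56.0 in the white libraries (log2 change 0.51 ± 0.18 SE, limma adjusted p = 0.150), and leaving out piwi-embKD replicate 2 took it past the threshold. A list of 9 muscle markers summed to 232 and 195 in the piwi libraries and 131 and 123 in the white libraries. All 9 were tested, and 4 were called higher and 0 lower, against 5.04% and 1.65% of all features. The part of these markers in the value of bt was not tested.

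The remaining 5 listed genes were below a mean of 1 and were not tested. These were the eye selector genes ey and toy, the Pax gene sv, the GABA transporter gene Gat and yellow-h. Their levels were between 0 and 1.18 in every library, and yellow-h was at 0 in piwi-embKD replicate 2, where a count of 0 allows a level of up to 0.183 from counting error alone.

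**Figure D3:**
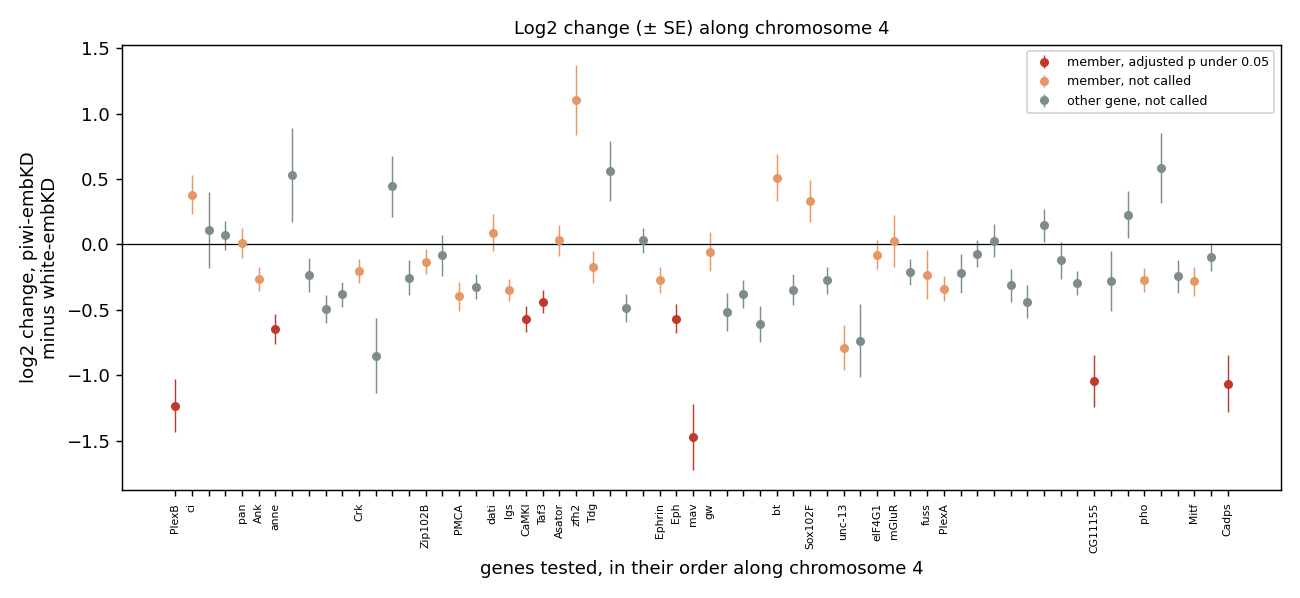
Log2 change with its standard error (vertical axis, piwi-embKD minus white-embKD) of the 64 chromosome 4 genes tested, evenly spaced in their order along the chromosome, with the members named. The 8 called members (red) lie from the first to the last gene drawn and neither the other members (orange) nor the genes outside the list (grey) were called.

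The called members were spread along the chromosome. Counted over the 92 chromosome 4 genes with a target, in the order of the RefSeq table, PlexB was the 2nd gene and Cadps the 92nd, and pairs of neighbours were called at CaMKI and Taf3 (36 and 37) and at Eph and mav (47 and 48). Direct neighbours of called members included genes that were not lower, such as ci beside PlexB (log2 change 0.38) and Asator beside Taf3 (0.03). Across the 64 genes tested, the Spearman correlation of the log2 change was −0.04 with gene order, −0.09 with merged exon length, 0.01 with gene span and −0.29 with mean level, while off the chromosome that with mean level was −0.18 over 8108 features. These are descriptions of genes that share libraries.

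Transposon copies were annotated in called and uncalled genes alike. At least 1 copy lay inside 7 of the 8 called genes and 43 of the 56 others, and a 1360 copy inside 4 of the 8 and 17 of the 56. Cadps held 25 copies, 4 of them 1360, and mav held none. An exon overlapped an annotated transposon copy in 3 of the 8 called genes (anne, Eph and CG11155), where fragments could have been shared out between the gene and the transposon targets.

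At the level of single transcripts, no transcript of a member was called in limma among 14790 targets tested, of which 0.0676% were called lower and 0.548% higher. Of 25 transcripts of the 8 called members, 22 had a log2 change below 0 (88.0%). For the members not called it was 46 of 76 (60.5%), and for all targets 51.5%. The 8 members were called on the sums of these same transcripts, so a high share below 0 was built into that choice. For mav and Taf3, with 1 transcript each, the transcript is the gene. The shares are therefore no separate evidence of a fall. The division between transcripts of a gene is an estimate of the counting model, so these values are less certain than the sums.

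**Figure D4:**
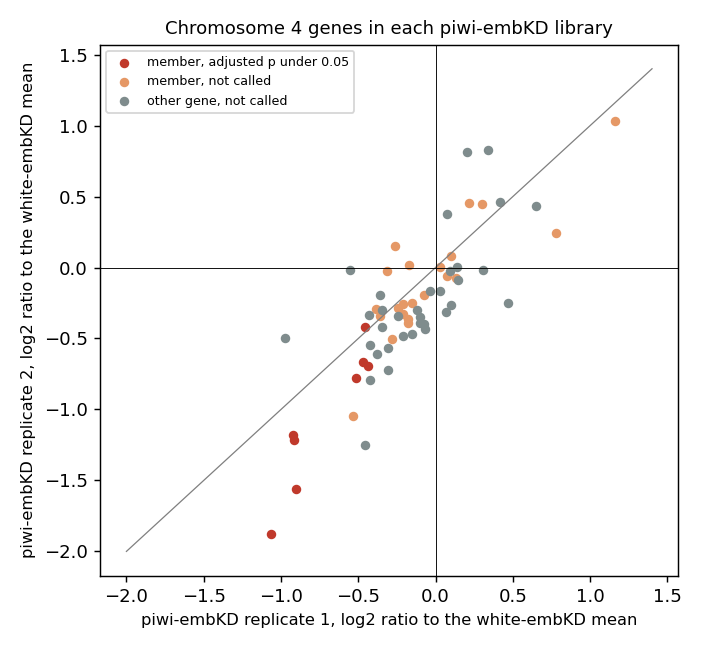
Log2 ratio of each tested chromosome 4 gene to its white-embKD mean in piwi-embKD replicate 1 (horizontal) and replicate 2 (vertical), with the line of equal ratios. The called members (red) lie at the lower left, and 7 of the 8 lie below the line, so their levels were lower in replicate 2.

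The piwi libraries differed in the size of the change. Against the white mean, the median log2 ratio of the 64 chromosome 4 genes was −0.18 in piwi-embKD replicate 1 and −0.30 in replicate 2, where that of all features was −0.01 and −0.06. The white libraries differed from each other by a median of −0.02 (replicate 2 over 1). In 39 of the 64 genes both piwi libraries were below both white libraries (60.9%, against 33.1% of all features). Replicate 2 was the lower of the piwi libraries for 7 of the 8 called members, for 47 of the 64 chromosome 4 genes (73.4%) and for 58.6% of all features. The piwi libraries differed in other ways too. Replicate 2 had less piwi transcript than replicate 1 (121 against 238). It also had a larger transposon share (3.61% against 2.58%) and a lower sum of gut markers (0.59 against 46.5). A link of any of these to the chromosome 4 values was not tested.

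Outside the list, 34 chromosome 4 genes were tested. With the main settings limma called 0 of them in either direction, against 1.65% of all features lower and 5.04% higher. Other settings did call genes outside the list. With the larger pseudocount 10 chromosome 4 genes were lower, 9 of them members (1.75% of all features). With the stricter filter 11 were lower, 8 of them members (1.85% of all features). At an unadjusted p under 0.05, 14 were lower and 1 higher, where 11.8% and 13.2% of all features were so placed. The median log2 change of the 34 genes was −0.24, and 24 were below 0 (70.6%, against 55.7% of all features). Pur-alpha and myo, named after their values were seen, lay close to the threshold. Pur-alpha, a nucleic acid binding protein, stood at 53.9 and 49.5 in the piwi libraries and 69.9 and 75.3 in the white libraries (log2 change −0.48, limma adjusted p = 0.0505). The gene myo, which encodes the TGF-beta family ligand Myoglianin, was at 177 and 137 in the piwi libraries and 238 and 237 in the white libraries (−0.61, limma adjusted p = 0.0527). The most abundant genes of the chromosome per kilobase in white-embKD ovaries, also named after their values were seen, were the ribosomal protein gene RpS3A and the ATP synthase gene ATPsynbeta. Both had overlapping groups, with log2 changes of 0.07 ± 0.11 and 0.03 ± 0.12 SE.

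Marker lists of several cell types also differed between the groups. Over all features, limma called 1.65% lower and 5.04% higher, and placed 11.8% and 13.2% so at an unadjusted p under 0.05. The 8 germline markers summed to 4554 and 4820 in the piwi libraries and 5677 and 5445 in the white libraries, with a median log2 change of −0.31 and none called in limma (5 lower and 1 higher at an unadjusted p under 0.05). The 10 follicle cell markers summed to 3210 and 3232 in the piwi libraries and 1419 and 1377 in the white libraries, and of 9 tested 6 were called higher and 0 lower. The 10 neuron markers summed to 8.71 and 7.32 in the piwi libraries and 6.49 and 5.97 in the white libraries, ChAT was at 0 in all 4 libraries, and 8 of the 10 were below the filter. Gut markers summed to 46.5 and 0.59 in the piwi libraries and 188 and 167 in the white libraries, with 5 of 8 called lower. Of the 4 blood cell markers only srp passed the filter, at 25.2 and 49.6 in the piwi libraries and 14.7 and 16.3 in the white libraries (limma adjusted p = 0.0799), nearly the whole of that list's sum, and Hml was at 0.74 and 0.65 in the piwi libraries and 0.71 and 0.81 in the white libraries. The fat body markers summed to 0.244 and 0.418 in the piwi libraries and 0.294 and 0.14 in the white libraries. The part of cell composition in the chromosome 4 values was not tested.

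Of 18 genes known to act on chromosome 4 chromatin, 17 were tested and limma called 0. At an unadjusted p under 0.05, 4 were lower and 0 higher, where 11.8% and 13.2% of all features were so placed. Pof stood at 34.1 and 34.7 in the piwi libraries and 44.4 and 49.9 in the white libraries (log2 change −0.44 ± 0.11 SE, limma adjusted p = 0.0796), so the groups did not overlap but the difference did not pass. The gene that encodes HP1a was at 265 and 209.9 in the piwi libraries and 266 and 252 in the white libraries (log2 change −0.13 ± 0.13 SE). The methyltransferase gene egg was at 65.4 and 69.6 in the piwi libraries and 67.0 and 67.4 in the white libraries (0.01 ± 0.10 SE). Its white values lay within the range of its piwi values. The median of the list was −0.16.

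Partners of the members in their pathways lie mostly on other chromosomes. Of 66 tested in 6 lists, limma called 1 higher (1.52%) and 0 lower, against 5.04% and 1.65% of all features. At an unadjusted p under 0.05, 11 were higher and 7 lower, where 13.2% and 11.8% of all features were so placed. The unadjusted counts of the partners were thus near those shares. The median log2 change of the partners was 0.01. The called gene was Sema5c, a semaphorin, at 33.1 and 46.0 in the piwi libraries and 21.4 and 22.5 in the white libraries (log2 change 0.80 ± 0.17 SE, limma adjusted p = 0.0495). Its call was lost with the smaller pseudocount and without either white library. Medians by list were −0.08 for 10 Hedgehog genes, 0.06 for 13 Wingless genes, 0.22 for 7 semaphorin and plexin partners, −0.01 for 15 Polycomb genes, −0.04 for 9 genes of GW182 silencing and 0.12 for 12 genes of TGF-beta family signalling. In the last list myo is itself a chromosome 4 gene.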

How the data were processed

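Ovary RNA was measured in 2 piwi-embKD and 2 white-embKD libraries. Per the labels' protocols, total RNA (4 µg) was depleted of ribosomal RNA and read as paired ends of 150 nt. The labels call the samples biological replicates. The authors deposited a signal value for each of 29637 targets (29511 transcripts and 126 transposon sequences), which per the file headers is a normalised effective count, and per the file names one made by eXpress. Per the submitters' processing notes, Bowtie2, STAR, Cufflinks and dm3 came into the processing, in roles that are not stated. The annotation, the use of strand and the normalisation were not given in the sources used here.

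In each library every value under 1000 times the smallest one was a whole multiple of it (within 0.02). Depth was inferred by taking that step as 1e-06 of a count, an assumption on the number of decimals, which makes 3 counts worth 0.188 and 0.183 in the piwi libraries and 0.148 and 0.151 in the white libraries. Transcripts were named with a RefSeq table of Release 6 (28233 named, 95.7%), which also gave chromosome and gene order, and values were summed per gene. Exon lengths, exon overlaps and transposon copies came from the Ensembl annotation of BDGP6, release 115. Neither is the authors' build, so no coordinate is given. No sequence was available for printing.

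Differences were tested in R 4.3.3 by limma 3.58.1, using its intensity trend, on log2(value + 0.995), over 8172 features with a mean of at least 0.995, two-sided, with Benjamini-Hochberg adjustment over all of them. Log2 changes are piwi-embKD minus white-embKD and understate changes of low genes. In 5 simulated runs of this comparison over 8172 features, limma recovered 57.4% of the 2-fold changes and 84.6% of the 4-fold ones. The runs gave both groups the same spread, while the piwi libraries correlated less (r = 0.976) than the white ones (r = 0.995). Changes under 2-fold were not simulated, so these figures do not cover them. The members and lists were chosen with earlier results of these data known. By rule, members given in full are those called, the 5 largest changes each way and the 3 highest per kilobase, and the remaining members are accounted for more briefly. Of the other chromosome 4 genes and list genes those called were to be named, with Pof, egg and the HP1a gene always. Pur-alpha, myo, RpS3A and ATPsynbeta fall outside this rule. Alternatives were other pseudocounts (0.249 and 3.98), no filter or a mean of at least 5, median-of-ratios and upper-quartile scaling, no trend, a replicate block, unsummed transcripts and leaving out each library.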

Additional observations from a re-analysis of the deposited data

How the results depend on the processing

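The members' median kept its sign under every alternative run and was −0.18 with transcripts unsummed. Members called lower numbered 0 with no filter, 2 without the trend, 0 with transcripts unsummed, and 1 to 17 with a library left out. Members called higher numbered 1 without the trend and 0 to 2 with a library left out. Chromosome 4 genes called lower numbered 0 with no filter, 2 without the trend, 14 with the replicate block (2.85% of all features), 0 unsummed, and 1 to 34 with a library left out, and those called higher 1 without the trend and 0 to 3. The chromatin list had 0 to 1 called higher and 0 to 8 lower with a library left out. Pathway partners called higher numbered 0 with no filter, with the smaller pseudocount and unsummed, 2 with upper-quartile scaling, 3 without the trend, 3 under the stricter filter, 4 under the replicate block (7.27% of all features), and 0 to 17 with a library left out, and those called lower 1 with the block and the stricter filter and 0 to 7. Leaving out a piwi library raised the share of all features called in both directions, and leaving out a white library lowered it. Those shares are given above with the chromosome 4 counts, and the leave-out counts of every list are to be read against them. The piwi transcript passed with the replicate block (−1.25, limma adjusted p = 0.0009) and the stricter filter (−1.25, limma adjusted p = 0.0437). With a library left out its log2 change ran from −1.73 to −0.77. Dropping a piwi library gave these extremes, −1.73 for replicate 1 and −0.77 for replicate 2. Dropping a white library left it near the main value, at −1.24 for replicate 1 and −1.27 for replicate 2. The block also took unc-13 past the threshold (limma adjusted p = 0.00208). The log2 change of eIF4G1 ran from −0.17 to 0.020 with a library left out, 0.020 being without piwi-embKD replicate 1. The difference in chromosome 4's share of the library ran from −0.409 to −0.295 percentage points with a library left out. The same-numbered libraries deviated together at r = 0.06 across features, so the numbers were not taken as a pairing. Values of 18 genes under alternatives kept both direction and side of the threshold in 169 of 213 cases. The 18 include genes that were not called and so had no call to lose. Lost calls made up 29 of the 213 cases, and all of them fell on the 8 called members. The cause of these changes was not tested. With 2 libraries per group and differences between the piwi libraries, fits that drop a library rest on a single sample in that group, assumed to vary like the other group.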

Other observations

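The summed share of X-linked genes was higher in both piwi libraries. Of 1350 X-linked genes tested, 71 were called higher (5.26%, against 5.04% of all features) and 5 lower (0.37%, against 1.65%) in piwi-embKD ovaries. The share called higher was thus near that of all features. X-linked genes took 17.2% and 18.1% of the signal of named genes in the piwi libraries and 16.6% and 16.7% in the white libraries. The difference in share was not tested. On 2L, 2R, 3L and 3R, 58 to 79 genes per arm were called higher and 23 to 32 lower.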
